A study of Caenorhabditis elegans with 2 samples.

Results

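Peaks at single, non-divergent promoters are stretches of chromatin pulled down with the tagged protein ZK546.5 that lie near the 5′ end of a protein-coding gene. Their summits are not within 500 bp of both 5′ ends of a pair of genes transcribed away from each other. A peak can still lie between such genes where they are further apart. The peaks were taken from the authors' pooled peak list in the ce11 genome build. A peak was a member when its signal value passed a threshold between 18.099, the highest value left out, and 18.112, the lowest kept, it did not lie on chromosomes V or X, and its summit was within 500 bp of an annotated protein-coding 5′ end. Peaks with a summit within 500 bp of both 5′ ends of a divergent pair, one gene on each strand, were left out. This left 479 members of 30000 pooled peaks, nearest to 458 genes. The threshold itself passed 2003 pooled peaks (6.68%), of which 1384 were on the remaining chromosomes: the 479 members, 140 peaks at divergent promoters and 765 with no protein-coding 5′ end in reach.

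The data came from chromatin immunoprecipitation and sequencing (ChIP-seq) of whole L4 larvae of Caenorhabditis elegans, the larval stage before adulthood. The only group was strain OP231, which carries the unc-119(ed3) III mutation and the integrated transgene wgIs231, with ZK546.5 fused to GFP and FLAG at its C terminus. The larvae were of pooled male and female sex and of unknown age, and 2 biological replicates were labelled. There was no second strain, stage or treatment, so all comparisons are between sets of peaks of this group, and a control named in the labels was not analysed here. Because whole larvae were used, the tissue in which a peak arises cannot be read from the lists, and binding of the tagged transgene product need not equal that of the native protein. A promoter is the stretch around the start of a gene where transcription factors and RNA polymerase assemble. In C. elegans many transcripts receive a short leader by trans-splicing, which removes the original 5′ end, and many genes sit in operons that share a promoter. An annotated 5′ end can therefore lie downstream of the base at which transcription begins.

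The sequences under 6 strong members, chosen because they hold the word ACCGTA, show short words that recur among them. Each is a stretch of 46 bases aligned on the word ACCGTA, read 5′ to 3′ on the strand that carries it, from the ce11 (WBcel235) genome. Capitals mark ACCGTA and, where present after it, CGAGACC or CCTGCA, which were picked out by reading such windows. The genes are sqd-1, an RNA-binding protein of the hnRNP kind, at IV:6323889-6323934 on the plus strand; ant-1.1, a mitochondrial ADP/ATP carrier, at III:13463088-13463133 on the plus strand; and ntl-2, a subunit of the CCR4-NOT deadenylase, at II:4376872-4376917 on the plus strand. The others are ubl-1, a ubiquitin-like protein fused to a small-subunit ribosomal protein, at III:3068094-3068139 on the minus strand, Y82E9BR.3 at III:1418853-1418898 on the plus strand, and the splicing factor gene prp-8 at III:8164026-8164071 on the plus strand.
sqd-1: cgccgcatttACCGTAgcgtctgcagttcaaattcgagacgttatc
ant-1.1: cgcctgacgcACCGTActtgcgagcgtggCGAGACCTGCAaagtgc
ntl-2: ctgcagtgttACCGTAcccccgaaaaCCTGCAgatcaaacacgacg
ubl-1: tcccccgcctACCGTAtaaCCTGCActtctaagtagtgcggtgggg
Y82E9BR.3: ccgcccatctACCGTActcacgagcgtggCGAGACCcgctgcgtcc
prp-8: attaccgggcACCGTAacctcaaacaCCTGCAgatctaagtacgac
In ant-1.1 both following words are present and share the bases CC. In ntl-2 and ubl-1 the word lay on the strand opposite to the gene, and in the other 4 on the strand of the gene. The distance from the word to the summit was between 12 bp in ant-1.1 and 48 bp in prp-8.

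The values of these members in the lists show how they rank. The sqd-1 peak had a pooled signal of 914, with a signal of 462 and rank 10 in replicate 1, and 451 and rank 5 in replicate 2. Its summit was 304 bp upstream of the 5′ end. The ant-1.1 peak had a pooled signal of 535, ranked 19 in both replicates, and lay 53 bp upstream. The ntl-2 peak (519) was 392 bp upstream, the ubl-1 peak (439) 210 bp, the Y82E9BR.3 peak (366) 301 bp and the prp-8 peak (363) 289 bp upstream. All 6 ranked among the 28 strongest peaks of each replicate. Signal is the authors' value for a peak. No source used here states how it is scaled from list to list, so it was compared within a list only, and replicates by rank.

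The strongest member of all lay 251 bp upstream of wwp-1, which encodes a HECT-type E3 ubiquitin ligase. Its signal was 1250 in the pooled list, and it ranked 2 in each replicate, with signals of 625 and 620. The summit fell within Y65B4BR.10, annotated as a non-coding RNA gene, in one of its exons. The next was at tba-2, an alpha-tubulin gene, with a pooled signal of 1016, rank 4 in both replicates, and a summit 140 bp upstream. The peak 343 bp upstream of icd-2, the alpha subunit of the nascent polypeptide-associated complex, had a signal of 945 and ranks of 5 and 7. These were close together in rank in the replicates, as were vig-1, a component of the RNA-induced silencing complex (783, ranks 12 and 12), and egl-30, the Gq alpha subunit (671, ranks 16 and 17).

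Ribosomal protein and translation factor genes were among the 25 strongest members. The large-subunit ribosomal protein genes rpl-41.2, rpl-3, rpl-35 and rpl-6 had pooled signals of 358, 325, 206 and 82.7. The rpl-41.2 peak ranked 32 in replicate 1 and 22 in replicate 2, and that of rpl-3 ranked 29 in both. The peaks at rpl-35 and rpl-6 ranked 45 and 37, and 94 and 104. The initiation factor 5A gene iff-2 (304, ranks 30 and 33) had its summit 77 bp upstream, and eif-3.C, a subunit of initiation factor 3, had a signal of 82.5 and ranks of 79 and 91. The AAA ATPase gene cdc-48.1, which acts on ubiquitinated proteins, had a signal of 202 and ranks of 47 and 38.

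Others in that group act in transcription, signalling and respiration. The TFIID subunit gene taf-4 had a pooled signal of 275 and ranks of 33 and 32. The catalytic subunit gene of protein phosphatase 1, gsp-2, had 144 and ranks of 56 and 50. The cytochrome c oxidase subunit gene cox-5B had 118, ranks of 77 and 45, and a summit only 17 bp upstream. The other 4 peaks were at E01A2.1 (239), the threonine aspartase gene tasp-1 (172), lelo-2 (107) and eelo-2 (86.9). All 25 had a summit within 100 bp in both replicate lists, none ranking below 100 in replicate 1 or 104 in replicate 2. Of the 25, 24 were upstream of the nearest 5′ end and 22 were intergenic, with a median distance of 251 bp.

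Signal fell steeply below these. The member median was 22.2, 48 members (10%) had a signal of 50 or more, and 22 (4.59%) reached 100. At the same threshold, divergent-promoter peaks had a median of 31.2, and 26 of 140 reached 100. The members just inside the threshold were at Y38E10A.22 (18.148), stim-1 (18.125) and ruvb-2 (18.112), and the peaks just outside were at Y71G12B.35 (18.099), pdf-1 (18.099) and C08F11.10 (18.085). The threshold was passed by 479 of 4825 single-promoter peaks off chromosomes V and X (9.93%), by 140 of 467 divergent-promoter peaks (30.0%), and by 765 of 14002 peaks with no protein-coding 5′ end in reach (5.46%). These shares use the signal that chose the members and are descriptions.

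Summits lay mostly upstream of the gene. Of the 479 members, 351 (73.3%, 95% Wilson interval 69.1% to 77.0%) had a summit upstream of the nearest 5′ end. Among the 4346 single-promoter peaks of lower signal, 2231 (51.3%, 49.8% to 52.8%) did. The odds ratio was 2.60 (two-sided Fisher's exact test over peaks, Benjamini-Hochberg adjusted p = 1.62e-19 over 10 tests). Against only the 479 peaks next below the threshold, of which 55.3% were upstream, the odds ratio was 2.21. Divergent-promoter peaks at the same threshold were upstream in 130 of 140 cases (92.9%), though the rule for that class bears on the side. An upstream majority was therefore not particular to the members. Peaks are not replicates, so the p-value counts peaks of this pooled list and carries no spread between cultures. The pooled list is deposited as peaks together with background, so weaker entries need not be binding sites.

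**Figure D1:**
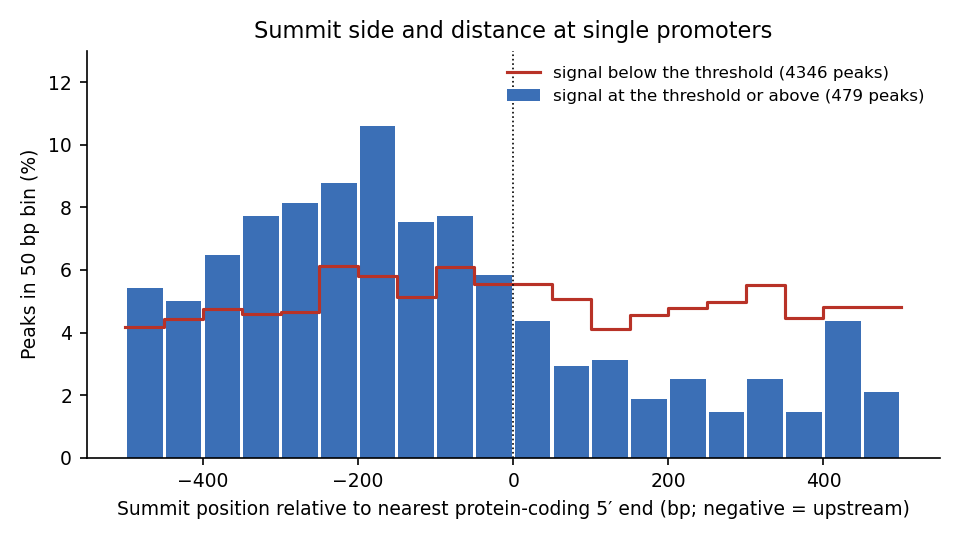
Position of summits relative to the nearest annotated protein-coding 5′ end in bp (negative values are upstream), as the percentage of peaks per bin, for the 479 members and the 4346 weaker single-promoter peaks. The members stand highest 150 to 200 bp upstream, with 51 summits.

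The median upstream distance was 227 bp, with quartiles of 134 and 342 bp, and the fullest 50 bp bin, from 150 to 200 bp upstream, held 51 members (10.6%). The 128 downstream summits were spread more evenly, with a median of 224 bp. The upstream summits were intergenic in 249 cases, in introns in 55 and in 3′ UTRs in 26, as the annotation at the summit base gives it. Downstream summits fell in coding exons in 57 cases, in introns in 44 and in 5′ UTRs in 19. In all, 52.4% of members were intergenic, against 31.2% of weaker single-promoter peaks and 79.3% of divergent-promoter peaks. Intron summits made up 20.7% of members and 32.6% of the weaker peaks, and coding-exon summits 12.9% and 23.9%.

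The downstream members were on the whole weaker. Their median signal was 20.4, against 23.2 upstream, and 14 of 128 (10.9%) were in the reproducible list, against 87 of 351 (24.8%). The strongest, at lelo-2 (107), lay 457 bp inside an internal 5′ end of the gene and in a 3′ UTR. The next was a second peak at egl-30 (82.4), 241 bp downstream of an internal 5′ end, with rank 80 in replicate 1 and rank 7808 in replicate 2. Peaks at ints-4, a subunit of the Integrator complex (74.5), at kin-14 (52.8) and at pyk-1, a pyruvate kinase (49.8), lay 49, 7 and 195 bp downstream. The ints-4 peak ranked 154 and 70, that of kin-14 112 and 452, and that of pyk-1 222 and 114.

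The share upstream was higher where signal was higher, in ranges chosen after the values were seen. It was 45 of 50 (90%, 78.6% to 95.7%) in the 50 strongest members, 86 of 100 (86%, 77.9% to 91.5%) in members 51 to 150, and 220 of 329 (66.9%, 61.6% to 71.7%) in the rest. In the next 479 peaks below the threshold it was 55.3% (50.8% to 59.7%), and in the other 3867 weaker peaks 50.8%. The median distance was between 220 and 236 bp in all 5 ranges, but the 500 bp window of the rule bounds it. The GC content of the 200 bp around the summit had a median of 44% in the 50 strongest, 42% in the next 100, 35.5% in the rest and 35% below the threshold.

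**Figure D2:**
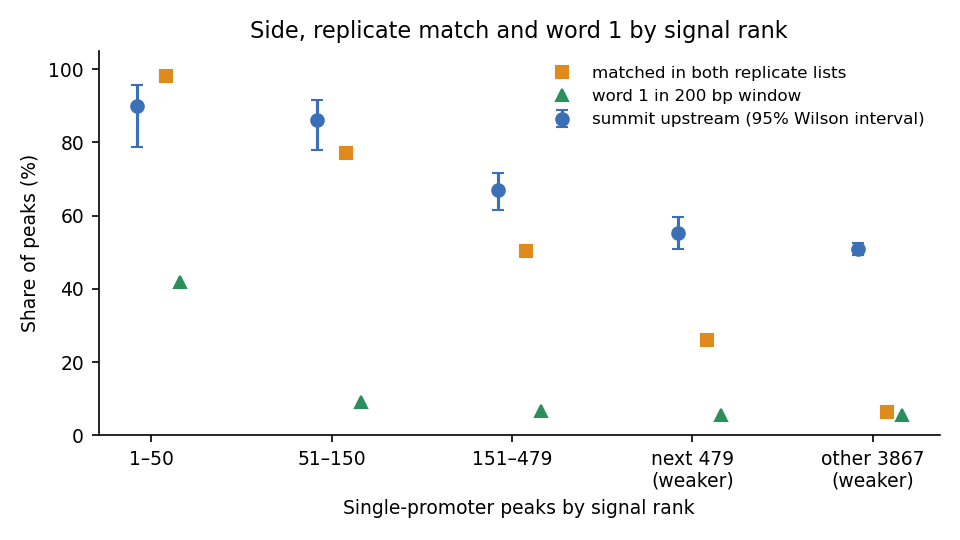
Percentage of peaks in each range of pooled signal that are upstream of the nearest 5′ end, matched in both replicates, or carry the word ACCGTA (word 1); vertical bars on the upstream points are 95% Wilson intervals. Each measure is highest in the 50 strongest members, at 90%, 98% and 42%.

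Agreement between the replicates followed the same order. A member was matched when the nearest summit of a replicate list was within 100 bp. By this, 361 members (75.4%) were matched in replicate 1, 389 (81.2%) in replicate 2, 291 (60.8%, 56.3% to 65.0%) in both and 20 (4.18%) in neither. At 50 bp in place of 100 bp, 39.9% were matched in both. Matches in both were found for 49 of the 50 strongest, 77 of the next 100 and 165 of the other 329 (50.2%). Matched in both were 71.4% of divergent-promoter peaks, 46.7% of peaks with no end in reach and 8.58% of the weaker single-promoter peaks. The pooled list was made from both replicates, so a match is not independent of membership. Each replicate list held 30000 peaks, and a match to its weak entries says little: 209 members were matched among the 2003 strongest of replicate 1, 196 among those of replicate 2, and 91 in both.

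The rank correlation of the replicate signals was higher among the 50 strongest members than among the others. Spearman's rho of the replicate signals was 0.446 over the 291 members matched in both, 0.840 over the 49 of these among the 50 strongest, and 0.0922 over the other 242. These are descriptions across peaks that share the pooled list as their source. The authors' reproducible list, derived by the irreproducible discovery rate, held 304 of the 30000 pooled peaks (1.01%) and 304 of the 2003 at or above the threshold (15.2%). It held 101 members (21.1%, 17.7% to 25%) and 69 of the 140 divergent-promoter peaks (49.3%). All 101 had a signal of 32.2 or more, and no other member did. The same held for the 69 divergent-promoter peaks and for the 64 listed peaks with no end in reach. Within these classes the list is thus a cut on pooled signal, and shares in it are no separate measure of replicate agreement.

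**Figure D3:**
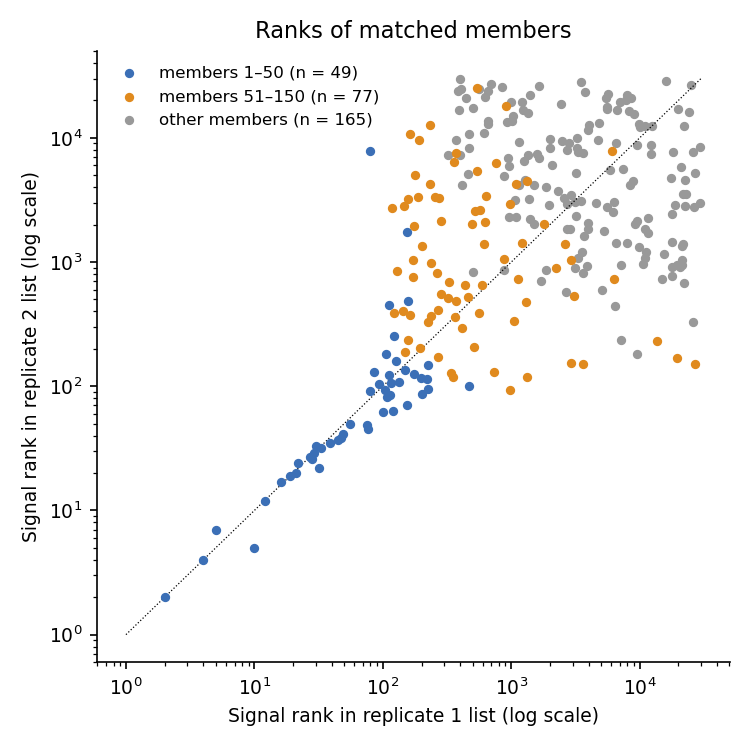
Rank of each of the 291 members matched in both replicates, in the replicate 1 list on the horizontal axis and the replicate 2 list on the vertical axis, both logarithmic, where rank 1 is the strongest of 30000 peaks. The strongest members follow the diagonal, and the others scatter widely around it.

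Among the 100 strongest members, 7 had no match in 1 of the replicates. At mog-4, a DEAH-box RNA helicase (signal 60.7), the replicate 1 summit was 9 bp away at rank 188, and the nearest of replicate 2 was 111 bp away at rank 83. That nearest peak was stronger in rank than its replicate 1 counterpart and lay just past the 100 bp limit. At ntl-11 (41.8) the replicate 1 summit ranked 134, and the nearest of replicate 2, 220 bp away, ranked 1268. The replicate 1 list had its nearest summit 113 bp away at K08F11.1 (39.4), 143 bp away at F40F11.3 (34.6) and 128 bp away at the ribosomal protein gene rpl-13 (34.0), with ranks of 352, 835 and 2428. In replicate 2 these 3 ranked 137, 178 and 357.

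The genes with a member peak were counted in 25 lists made from gene symbols. Of the 3927 genes nearest to any single-promoter pooled peak off chromosomes V and X, 458 (11.7%) had a member. The lists were chosen with earlier results of these data known, and the counts use the same signal, so they are descriptions with no test. Cytosolic ribosomal protein genes had a member at 21 of 30 (70%), 13 of the large and 8 of the small subunit. All 21 summits were upstream, between 121 and 459 bp with a median of 301 bp, 19 of them over 200 bp away. Of these 21, 14 were in the reproducible list and 18 were matched in both replicates.

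Genes of the respiratory chain, ATP synthase and mitochondrial carriers had a member at 7 of 15 (46.7%), all 7 upstream. Beside ant-1.1 and cox-5B these included cox-5A (78.4, 303 bp upstream, ranks 86 and 130) and cox-4 (32.0, 470 bp upstream, rank 513 in replicate 1 and no match in replicate 2). The proteasome had 3 of 10, with the lid deubiquitinase gene rpn-11 highest at 27.8 (ranks 902 and 18098). None of these 3 peaks was in the reproducible list. The peak at rpt-6 had no match in replicate 2, and that at rpn-2 none in replicate 1. DNA replication and cell cycle genes had 6 of 26, among them the sliding clamp gene pcn-1 (30.9, ranks 458 and 520). Splicing and mRNA-binding genes had 7 of 31 and translation factors 3 of 15. RNA polymerase and general transcription genes had 5 of 24, including the polymerase II subunit gene rpb-11 (40.3, ranks 190 and 9587). Chaperones had 3 of 17, with hsp-1, a constitutive Hsp70, at 62.3.

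Several lists stood near the share of all genes. Chromatin genes had 6 of 38, with the cohesin loader gene scc-2 highest at 45.0, the ubiquitin pathway 3 of 19, secretion and membrane traffic 6 of 44 and mitochondrial ribosomal proteins 3 of 24. In the secretion list, icd-1, the beta subunit of the complex that icd-2 belongs to, had a signal of 46.6, ranks of 148 and 187, and a summit 397 bp upstream. Transcription factors had 8 of 69, highest at hlh-11 (44.7) and zip-2 (39.3), signalling genes 2 of 19, glycolysis 1 of 7 and muscle genes 1 of 6, this last at unc-89 (18.3, matched in neither replicate). Innate immunity had 5 of 50 and detoxification 2 of 20. Other lists stood below the 11.7% of all genes. Cuticle collagens had 2 of 35 (5.71%), the cytoskeleton 1 of 19 (5.26%), neuronal genes 2 of 42 (4.76%) and chemoreceptors 2 of 76 (2.63%). No member was at any of 8 aminoacyl-tRNA synthetase genes, 5 sperm genes or 2 intestine genes. The lists cover 103 members, and 376 members were on none.

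**Figure D4:**
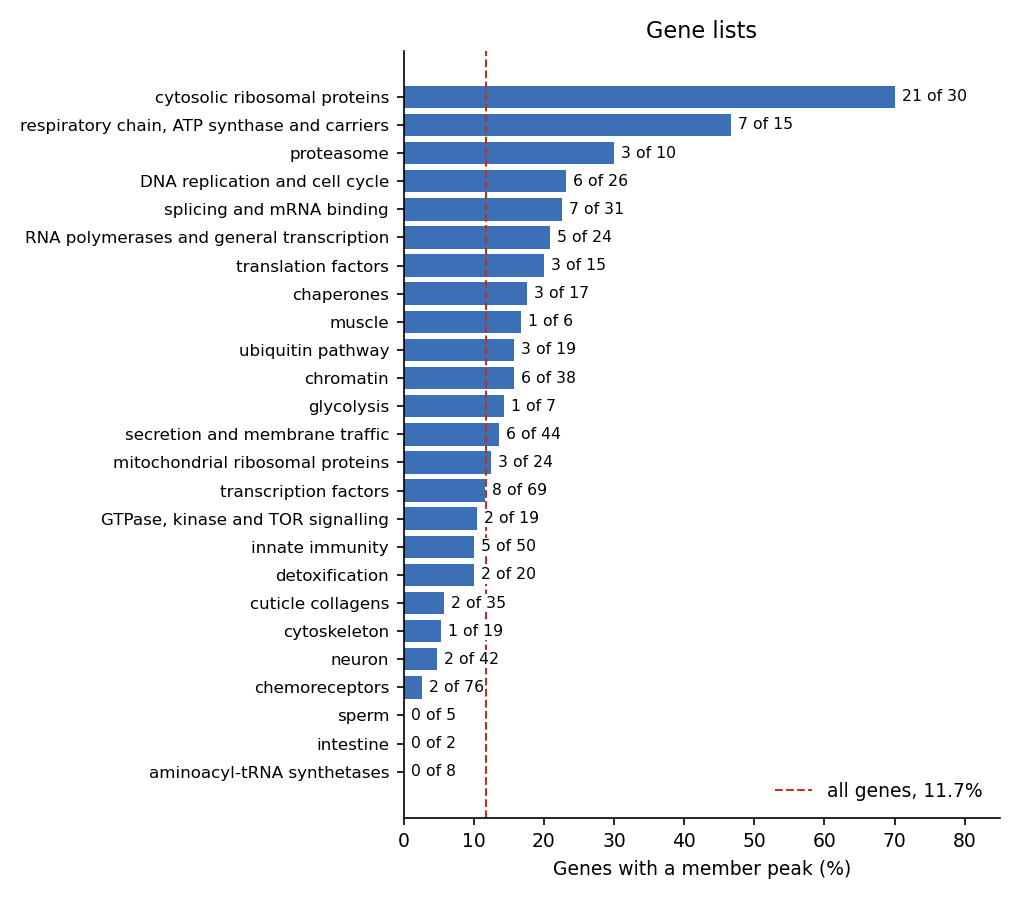
Percentage of the genes of each of 25 lists that have a member peak, out of the list's genes nearest to any single-promoter pooled peak, with the counts printed beside the bars and the 11.7% of all such genes as a dashed line. Cytosolic ribosomal proteins (70%) and the respiratory chain list (46.7%) stand highest.

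The word ACCGTA was less frequent at single than at divergent promoters of the same threshold. It was found on either strand within the 200 bp centred on the summit in 52 of 479 members (10.9%, 8.38% to 14%) and in 39 of 140 divergent-promoter peaks (27.9%, 21.1% to 35.8%). The odds ratio was 0.315 (two-sided Fisher's exact test, Benjamini-Hochberg adjusted p = 1.28e-05). ACCGTA had been seen in earlier results of these data, so the test is not of a word set in advance. Divergent-promoter peaks were also stronger, and the word was commoner in strong peaks. With a signal of 50 or more, 43.8% of 48 single-promoter and 45.7% of 46 divergent-promoter peaks carried it (odds ratio 0.926, exact test, adjusted p = 1.00), so no difference was detected among strong peaks. The call was also lost with summits limited to 300 bp from a 5′ end (odds ratio 0.559) and among peaks overlapping the reproducible list (0.518). Of all 30000 pooled peaks 5.44% held the word, of the weaker single-promoter peaks 5.55%, and of the 200 bases before the outermost 5′ end of 12248 protein-coding genes off V and X 6.15%.

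Within the members, ACCGTA went with signal. It was in 14 of the 25 strongest, 21 of the 50 strongest (42%), 9% of the next 100 and 6.69% of the rest. The word was absent at wwp-1, tba-2, icd-2 and vig-1, which ranked 1, 2, 3 and 5 among the members. The egl-30 peak of member rank 6 held the word, but its stretch is not printed. The median signal was 35.1 with the word and 21.8 without. It was on the strand of the gene in 32 members, on the other in 19 and on both in 1, at a median of 29 bp from the summit. Among the 21 ribosomal protein peaks 8 held it.

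The other 7 words searched on both strands gave no difference between single and divergent promoters that passed the threshold. GCGCAC was in 13.8% of members and 20% of divergent-promoter peaks (odds ratio 0.639, exact test, adjusted p = 0.204), and TGCGTCTC in 6.47% and 9.29% (0.676, adjusted p = 0.527). Both were rarer in all pooled peaks, at 3.33% and 1.73%, and GCGCAC was in 32% of the 50 strongest members, 28.0% of the next 100 and 6.69% of the rest. TATAAA, a core promoter word, was in 19.4% and 15.7%, and TTTCAG, the usual 3′ splice site, in 30.3% and 30.7%. CCGCCC was in 8.14% and 7.14%, CCAAT in 31.5% and 29.3%, and GAGAGA in 23.4% and 19.3%, with adjusted p between 0.553 and 0.917 for these 5. In all pooled peaks GAGAGA stood at 12.1%, TATAAA at 22.2%, TTTCAG at 36.0% and CCAAT at 36.1%. In the 200 bases before the outermost 5′ end of 12248 protein-coding genes off V and X, TATAAA was in 30.0%. Those windows stop at the 5′ end and the members' are centred on summits, so the shares are not of like positions.

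**Figure D5:**
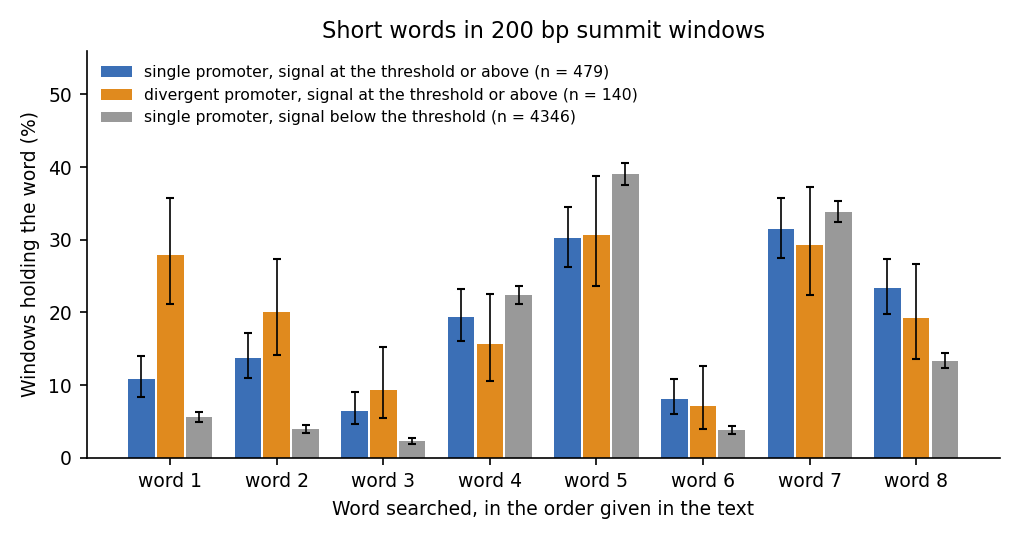
Percentage of 200 bp summit windows that hold each of 8 short words, for members, divergent-promoter peaks and weaker single-promoter peaks, with 95% Wilson intervals as error bars; word 1 is ACCGTA, 2 GCGCAC, 3 TGCGTCTC, 4 TATAAA, 5 TTTCAG, 6 CCGCCC, 7 CCAAT and 8 GAGAGA. Only word 1 differed between members (10.9%) and divergent-promoter peaks (27.9%) past the threshold.

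Each printed stretch was chosen to hold ACCGTA, and 5 of the 6 hold a second word after it. CGAGACC was in 8.35% of members, 24% of the 50 strongest, 19.3% of divergent-promoter peaks and 2.27% of all pooled peaks. CCTGCA was in 5.01%, 20%, 14.3% and 4.18%. Of 53 ACCGTA sites in members, 12 (22.6%, 13.5% to 35.5%) were followed within 40 bases on the same strand by either word, as were 9 of 21 in the 50 strongest, 11 of 40 at divergent promoters and 5 of 257 (1.95%) in weaker single-promoter peaks. These words were chosen from the windows themselves, so no test was made.

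The gene next upstream was on the same strand for 262 members (54.7%), at a median gap of 518 bp, and on the opposite strand for 194 (40.5%), at 2018 bp. The rule left out summits near both ends of a divergent pair, and only 7 of the 194 opposite-strand gaps were of 500 bp or less. The opposite-strand share and gap are thus partly set by the rule. For 23 members (4.80%) the nearest 5′ end lay inside another protein-coding gene. The same-strand gap was shorter than for the weaker peaks, where it was 919 bp, and 128 of the 262 gaps were of 500 bp or less. A same-strand neighbour so close can be an upstream member of the same operon or a separate gene, and the lists do not tell these apart. The egl-30 peak had the shortest same-strand gap of the 25 strongest, 223 bp, and the rpl-35 peak an opposite-strand neighbour 11498 bp away. The nearest 5′ end was an internal one, not the outermost of its gene, for 98 members (20.5%) and for 28.8% of weaker single-promoter peaks. Gaps were counted from that internal end in such cases, so the gap medians of members and weaker peaks are not fully alike in what they measure.

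Ends of non-coding genes were not called commoner near members. A 5′ end of a non-coding gene lay within 500 bp of 73 members (15.2%, 12.3% to 18.7%) and of 525 weaker single-promoter peaks (12.1%, 11.1% to 13.1%). The odds ratio was 1.31 (two-sided Fisher's exact test, adjusted p = 0.162). It passed the threshold without replicate 2, that is for the replicate 1 list alone (odds ratio 1.46, exact test, adjusted p = 0.0290). With 300 bp as the limit for both the protein-coding and the non-coding end, it also passed (1.64, exact test, adjusted p = 0.0329). A non-coding end was then in reach of 12.4% of 362 members and 7.98% of 2870 weaker peaks, so that outcome is not the 500 bp one. By type, 41 were near a gene annotated as ncRNA, 16 near a snoRNA, 14 near a piRNA, 4 near a tRNA and 3 near an snRNA. The ncRNA share was 8.56% in members and 5.78% in weaker peaks, the snoRNA share 3.34% and 0.598%, and the piRNA share 2.92% and 4.60%. For tRNA it was 0.835% and 0.690%, and for snRNA 0.626% and 0.253%. Single types were not tested. Among the 25 strongest, wwp-1 and Y82E9BR.3 had ncRNA genes in reach, ubl-1 a snoRNA gene and vig-1 a piRNA gene.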

How the data were processed

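Peak lists of 2 replicates were used as deposited, in ce11 coordinates. Per the text files deposited with them, each replicate's list was made from its alignments with 1 control file, while the pooled list used both replicates. The reproducible list was derived by the authors by the irreproducible discovery rate. The signal is the authors' value per peak. Aligner and peak caller: not given in the sources used. Read depth is unknown, so intervals cover the counting of peaks only. Per the labels, the lists also exist in ce10, which was not used here.

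Summits were placed against Ensembl release 115 (WBcel235) with Python 3.11.15, pandas 2.3.3, numpy 2.4.6, scipy 1.17.1 and matplotlib 3.10.9. Distances were taken to the 5′ ends of all transcripts of protein-coding genes. Each summit was set on the nearest one, and a summit on the end itself counted as downstream. Words were searched on both strands in the 200 bp around summits. The 10 Fisher's exact tests were adjusted together by the Benjamini-Hochberg method, with a threshold of 0.05, and classification was tested on simulated data.

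Genes were named by rule: the 25 strongest members, the 5 strongest downstream, up to 4 per list, the 3 on each side of the signal threshold, and 5 of the 100 strongest whose replicate ranks differ most or that lack a match. Members and lists were chosen with earlier results of these data known.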

Additional observations from a re-analysis of the deposited data

How the results depend on the processing

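The upstream side held in every one of the 11 alternatives run for it, with odds ratios from 2.11 (without replicate 2) to 9.70 (signal of 50 or more). The word ACCGTA did not pass the threshold within 300 bp of the 5′ end (odds ratio 0.559, exact test, adjusted p = 0.197), with signal of 50 or more (0.926, 1.00) or for overlap with the reproducible list (0.518, 0.166). It passed in the other alternatives run, with 0.233 and 0.234 when a replicate was left out. Non-coding ends passed with 300 bp as the limit for both kinds of end (1.64, exact test, adjusted p = 0.0329). They also passed without replicate 2 (1.46, 0.0290), but not without replicate 1 (1.40, 0.0749). Members numbered 48 with signal of 50 or more, 115 by overlap with the reproducible list, and 388 to 446 when a replicate was left out and the members were taken from the other's list. The share matched in both was 97.9% with signal of 50 or more, 82.6% by overlap with the reproducible list, 39.9% for matches within 50 bp and 76.2% within 200 bp. With members from 1 replicate's list, 37.4% to 40.4% were matched in the other.

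Of the uncalled words, some odds ratios crossed 1. CCAAT gave 0.943 with the outermost 5′ end, 0.772 with signal of 50 or more and 0.908 in 100 bp word windows. TTTCAG gave 1.20 with a 1000 bp limit for divergent pairs, 1.05 from peak midpoints, 1.03 to 1.15 when a replicate was left out, and 1.00 in 100 bp word windows. CCGCCC gave 0.601 with the 1000 bp limit, 0.782 to 0.964 when a replicate was left out, 0.958 in 100 bp and 0.864 in 300 bp word windows. GCGCAC gave 1.87 with signal of 50 or more and 1.78 by overlap with the reproducible list, and TGCGTCTC 1.47 and 1.03, with 1.11 in 300 bp word windows. TATAAA gave 0.752 in 300 bp word windows. The causes were not tested.

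No paired analysis was possible because all samples belong to 1 group. The alternatives with 1 peak per gene and with peaks just below the threshold were chosen after seeing the data. Depth is unknown, so absence of a match does not show absence of binding.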

Other observations

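Summit side differed in value by chromosome, without a test. Members were upstream in 77.6% of 143 on chromosome I, 74.5% of 110 on II, 80.2% of 101 on III and 61.6% of 125 on IV. Below the 150 strongest, 48 of 90 members on IV (53.3%) were upstream, against 75.2% on I, 69.2% on II and 70% on III.

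In 21 genes, 2 member peaks shared the nearest gene. At wwp-1 the second peak (24.7) ranked 3664 and 1616 in the replicates, 162 bp upstream of an internal 5′ end. At kel-3, peaks of 60.9 and 41.7 lay 244 bp upstream and 404 bp downstream of different 5′ ends, with ranks of 106 and 182, and 239 and 368. At dld-1, the dihydrolipoamide dehydrogenase gene, a peak of 61.7 lay 254 bp upstream and one of 20.5 lay 157 bp downstream of an internal end. At lin-28, a regulator of developmental timing, both peaks (26.6 and 20.0) were upstream, 75 bp from an internal end and 401 bp from the outermost end. The first ranked 369 and 7520. The second had no match in replicate 1 and ranked 28181 in replicate 2.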
